A study of Mus musculus with 21 samples.

Results

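The genes described here are the protein-coding genes of cultured primary mouse hepatocytes given lipopolysaccharide (LPS) and nigericin, compared between 3 libraries that had first received the NLRP3 inhibitor MCC950 and 3 that had not. A gene was included where its mean over the 6 libraries reached 1 FPKM, the number of fragments scaled to gene length and library size, and 8999 of the 22046 protein-coding genes in a table of 54532 genes did so. No gene was chosen by its difference between the groups.

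The series asks how hepatocytes come to die by pyroptosis in liver fibrosis, and these 6 of its 21 libraries are its only cultured cells. All 6 came from hepatocytes labelled wild type. Both groups were given LPS at 1 µg/mL for 6 h and nigericin at 10 µM for 30 min, and 1 group was given MCC950 at 10 µM for 2 h before the stimulation (the doses are given for the series as a whole, the times also for each sample). No strain, age or sex was given. None of the 21 libraries came from cultured hepatocytes left without LPS and nigericin, so the effect of LPS and nigericin cannot be read here. Nothing in the labels says whether the 3 libraries of a group came from separate mice or cultures, so the p-values below measure only the spread between these libraries.

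NLRP3 is a cytosolic sensor that assembles, through the adaptor ASC, into an inflammasome that activates caspase-1. Caspase-1 then cuts pro-interleukin-1β, pro-interleukin-18 and gasdermin D, whose freed end opens pores in the plasma membrane, and NINJ1 completes the rupture of the cell. In macrophages LPS primes the system by switching on Nlrp3 and Il1b through NF-kB, and nigericin, a potassium ionophore, triggers assembly. MCC950 binds NLRP3 itself and blocks its ATPase, so it acts on the protein and not directly on transcription.

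Between 14883710 and 15705568 reads per library could be recovered from the deposited values of the group without MCC950 and between 16799327 and 17157586 from those of the MCC950 group, so all 3 MCC950 libraries were deeper. The libraries were close to each other: over the 8999 genes the correlation of log2(FPKM + 1) was 0.991 to 0.996 between libraries of a group and 0.990 to 0.996 between libraries of different groups. Replicate 1 of the libraries without MCC950 stood furthest from its group, with a median deviation of 0.113 on the log2 scale against 0.0676 to 0.0946 in the other 5. The cells carried the hepatocyte markers at high levels, with Alb at a mean of 28777 FPKM (SD 3526, n = 3) without and 30615 FPKM (SD 1941, n = 3) with MCC950 and 31 of 32 genes of a hepatocyte identity list above 1 FPKM. Few markers of other liver cells were expressed at that level: 1 of 20 Kupffer cell and macrophage genes (Cd68), 3 of 16 sinusoidal endothelial genes (Cdh5, Stab1 and Lyve1), 1 of 16 stellate cell and fibroblast genes (Reln), 4 of 13 cholangiocyte genes (Sox9, Spp1 and Cdh1 among them) and none of 13 neutrophil or 16 lymphocyte genes reached 1 FPKM.

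No gene was called different with MCC950. Of 9835 genes of all kinds tested with limma, 0% passed an adjusted p of 0.05, and the smallest adjusted p was 0.301 over all genes and 0.390 over the protein-coding ones. At an unadjusted p under 0.05, 421 of the 8999 protein-coding genes were higher and 647 lower with MCC950, against 4.73% higher and 7.15% lower among all genes tested. These counts at p under 0.05 depended on single libraries: they were 222 and 376 without replicate 2 of the group without MCC950, 566 and 1064 without its replicate 1, and 199 and 365 or 198 and 341 without MCC950 replicate 1 or 3. The lower genes made up 60.6% of the genes with p under 0.05, but 44.2% with quantile normalization and 38.2% when limma was run with voom on the recovered reads. All 3 MCC950 libraries lay above the other 3 for 825 genes and below them for 1010, where the shares over all genes tested were 8.88% and 10.8%. With quantile normalization 991 genes were above and 746 below. With 5 libraries in place of 6 fewer values have to be ordered, and these counts were 1100 to 1629 above and 1300 to 2099 below, the most in both directions without replicate 1 of the group without MCC950. The median difference was -0.01 in log2(FPKM + 1), a scale on which low genes change by less than their true fold, and the 5th and 95th percentiles were -0.21 and 0.17. In FPKM + 1, the 95% interval of the difference stayed within 1.5-fold either way for 8725 genes (97.0%) and within 2-fold for 8950 (99.5%). Its median half-width was 1.13-fold. Near 1 FPKM a fold in FPKM itself is larger: Odf3b went from a mean of 1.05 FPKM without to 1.63 FPKM with MCC950. Its interval of 0.18 to 0.54 still counts as within 1.5-fold.

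**Figure D1:**
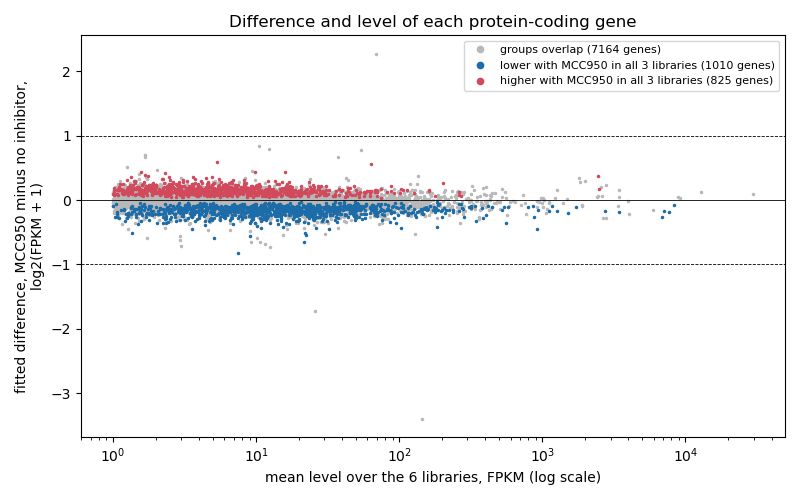
Each point is 1 of 8999 protein-coding genes, with its mean level over the 6 libraries in FPKM on a log axis and its fitted difference, MCC950 minus no inhibitor, in log2(FPKM + 1). Blue and red mark the 1010 and 825 genes whose 2 groups of 3 libraries do not overlap. Beyond the dashed lines, which mark 2-fold in FPKM + 1, lie 3 genes, all with overlapping groups.

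The difference of a gene went with the base composition of its transcript, which bears on every group of genes below. Spearman's correlation between the difference and the GC share of the gene's longest transcript was -0.61 across 8992 genes, a description across genes that share the same 6 libraries. The fifth of genes with the lowest GC share (32.9% to 44.0%) had a median difference of 0.08, with 433 of 1799 genes higher in all 3 MCC950 libraries and 17 lower. The fifth with the highest GC share (55.4% to 72.8%) had a median of -0.11, with 15 higher and 419 lower. For that reason each group of genes is also given with a smooth GC trend removed from every library, an adjustment added after the data were seen. With it the correlation was -0.01, 626 genes were higher and 605 lower without overlap, 542 genes (6.02%) in place of 1068 (11.9%) had an unadjusted p under 0.05, and limma again called 0 (smallest adjusted p 0.347).

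The machinery that MCC950 acts on was close to undetected in these cells. Nlrp3, the drug's target (ENSMUSG00000032691, chromosome 11), was represented by 1, 0 and 4 reads without MCC950 and 4, 1 and 3 with it, 13 in all, which is a mean of 0.0255 FPKM (SD 0.0309, n = 3) without and 0.0369 FPKM (SD 0.0211, n = 3) with MCC950. The groups overlapped (p = 0.8 in an exact two-sided permutation test, whose smallest possible value is 0.1 with 3 libraries a group). Pycard, which encodes the adaptor ASC, had 5 reads over the 6 libraries and Casp1, the protease, had 2. The interleukin-1 genes were as scarce, with 8 reads for Il1b, whose product the protease cuts, and 5 for Il1a. Il18, whose product it also cuts, had 172 reads and a mean of 1.65 FPKM over the 6 libraries. A difference in Nlrp3, Pycard, Casp1, Il1b or Il1a was not detectable at this depth.

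Most other inflammasome sensors lay in the same low range. Aim2, a sensor of cytosolic DNA, had 6 reads, Mefv, which encodes pyrin, had 1 and Nlrc4, a partner of the NAIP receptors for bacterial proteins, had 10. No read was recovered for Nlrp1a, Nlrp1b or Naip5, nor for the gasdermin genes Gsdma and Gsdmc. Nlrp6 was better covered, at 0.477, 0.591 and 0.490 FPKM without MCC950 and 0.518, 0.575 and 0.389 FPKM with it, with overlapping groups (p = 0.8 in the same exact test). Casp4, which encodes the mouse caspase-11 that binds LPS inside the cell, had 20 reads (p = 0.9 in the same exact test), and P2rx7, the ATP-gated channel that can set off NLRP3, had 23 (p = 0.2). Panx1, a channel that releases ATP, was at 0.794, 0.823 and 0.796 FPKM without MCC950 and 0.818, 0.755 and 0.730 FPKM with it (p = 0.3 in the exact test), and Gsdme, a gasdermin cut by caspase-3, at 1.00, 0.943 and 0.863 FPKM without MCC950 and 0.967, 1.05 and 0.961 FPKM with it (p = 0.4).

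The executioners at the far end of the pathway were well expressed. Of the 9 pathway genes above 1 FPKM, 2 (22.2%) were lower in all 3 MCC950 libraries, beside 10.8% of all genes tested. With only 9 genes these shares cannot be told apart, and their difference was not tested. Ninj1, needed for the final rupture of the membrane, was at 72.8, 89.5 and 82.5 FPKM without MCC950 and 70.5, 72.1 and 66.9 FPKM with it. Gsdmd, the pore-former, was at 16.6, 17.9 and 16.5 FPKM without MCC950 and 12.7, 15.4 and 15.5 FPKM with it. In both genes every MCC950 library lay below every library without it, by -0.22 (95% interval -0.41 to -0.02) for Ninj1 and -0.22 (95% interval -0.42 to -0.02) for Gsdmd on the log2 scale, and neither passed (limma adjusted p = 0.402 and 0.407). After removal of the GC trend the Ninj1 groups overlapped (-0.10) and those of Gsdmd did not (-0.15).

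The other 7 expressed genes of the pathway overlapped between the groups. Txnip, which binds thioredoxin and has been linked to NLRP3, was at 30.8, 27.7 and 26.4 FPKM without MCC950 and 34.5, 31.2 and 29.0 FPKM with it. Nek7, the kinase that bridges NLRP3 subunits, was at 15.1, 14.2 and 15.6 FPKM without MCC950 and 16.1, 14.6 and 16.4 FPKM with it, a difference of 0.07 (95% interval -0.08 to 0.22). P2rx4, a further ATP-gated channel, differed by -0.01 (95% interval -0.13 to 0.10), the narrowest interval of the 9. Casp8 differed by 0.12, Brcc3, a deubiquitinase of NLRP3, by 0.11, Il18 by 0.06 and Naip2 by 0.04, with limma adjusted p from 0.476 for Txnip to 0.913 for P2rx4 among these 7. The median of the 9 genes was 0.06, beside -0.01 over all 8999, and 0.01 without the GC trend.

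**Figure D2:**
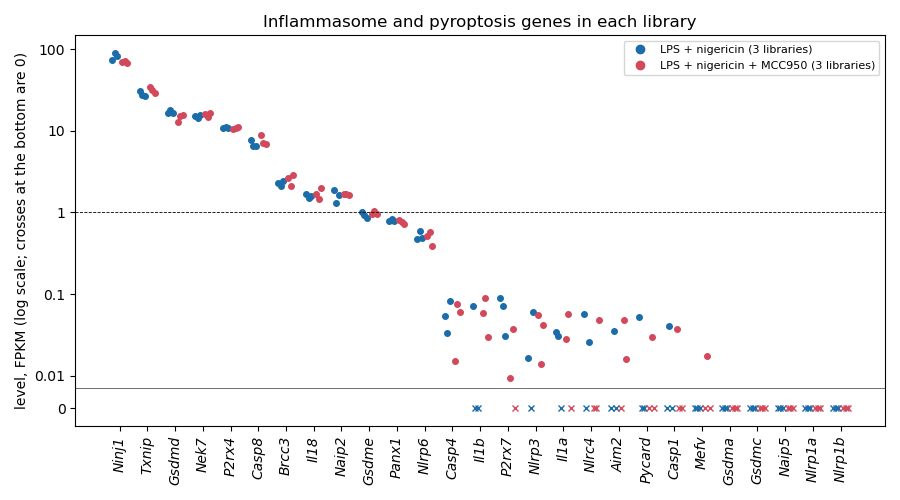
Level of each of 27 inflammasome and pyroptosis genes in each library, in FPKM on a log axis, with crosses at the bottom for values of 0 and a dashed line at 1 FPKM. Ninj1, Txnip, Gsdmd, Nek7 and P2rx4 lie above 10 FPKM, while Nlrp3, Casp1, Pycard and Il1b are among those below 0.1 FPKM in both groups.

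The receptor for LPS was also near the limit of detection. Tlr4 had 1, 1 and 1 reads without MCC950 and 4, 4 and 3 with it, a mean of 0.0114 FPKM (SD 0.000663, n = 3) without and 0.0371 FPKM (SD 0.00575, n = 3) with MCC950, and although the groups did not overlap, these are 3 and 11 reads. Its co-receptors were plentiful: Cd14, which hands LPS to the receptor, was at 72.9, 68.4 and 67.9 FPKM without MCC950 and 70.5, 67.6 and 70.8 FPKM with it, and the libraries of the groups were interleaved. The difference of Cd14 was 0.00 (95% interval -0.12 to 0.12, limma adjusted p = 0.992). Ly96, which encodes the MD-2 subunit that holds LPS, differed by 0.07 (95% interval -0.08 to 0.22).

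Downstream of the receptor, 22 of 24 LPS sensing and signalling genes were above 1 FPKM, and 2 were higher and 1 lower in all 3 MCC950 libraries, beside 8.88% and 10.8% of all genes tested, with a median of 0.04 (0.02 without the GC trend). Chuk, the IKKα kinase, was at 22.7, 21.3 and 24.0 FPKM without MCC950 and 25.9, 24.6 and 25.7 FPKM with it, and Ikbkb, the IKKβ kinase, at 3.63, 3.75 and 3.77 FPKM without MCC950 and 3.90, 4.05 and 3.91 FPKM with it. Irf3, the transcription factor of the TRIF branch, was at 38.4, 41.3 and 37.9 FPKM without MCC950 and 30.7, 37.6 and 33.7 FPKM with it. The limma adjusted p of these 3 was 0.402, 0.568 and 0.414, and the groups of Chuk and Irf3 overlapped once the GC trend was removed. Myd88, the main adaptor, overlapped between the groups and differed by 0.07 (95% interval -0.17 to 0.31).

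Targets of NF-kB, the factor at the end of that pathway, were expressed at similar levels in both groups. To show which genes these are, 4 of them are given with the 250 bases before their start site from RefSeq (build GRCm38.p6, 5′ to 3′ on the gene's strand), in lower case with matches to the kB consensus in capitals. The consensus was taken as 3 G, a purine, 2 of any base, 2 pyrimidines and 2 C, searched on both strands, and matches that overlap are joined. RefSeq gives Tnfaip3 a further start site, not printed, whose window held 0 matches.
Cxcl1 (chr5:90890995-90891244, plus strand): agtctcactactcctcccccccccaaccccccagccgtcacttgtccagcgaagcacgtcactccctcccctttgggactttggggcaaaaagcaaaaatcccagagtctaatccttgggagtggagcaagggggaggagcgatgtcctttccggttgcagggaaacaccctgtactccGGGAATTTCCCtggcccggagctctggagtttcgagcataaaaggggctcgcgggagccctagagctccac
Cxcl2 (chr5:90903649-90903898, plus strand): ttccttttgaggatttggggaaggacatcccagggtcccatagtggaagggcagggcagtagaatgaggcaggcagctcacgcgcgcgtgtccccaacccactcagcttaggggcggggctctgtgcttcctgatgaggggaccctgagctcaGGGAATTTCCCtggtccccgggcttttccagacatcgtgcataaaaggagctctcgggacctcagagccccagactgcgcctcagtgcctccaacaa
Nfkbia (chr12:55492648-55492897, minus strand): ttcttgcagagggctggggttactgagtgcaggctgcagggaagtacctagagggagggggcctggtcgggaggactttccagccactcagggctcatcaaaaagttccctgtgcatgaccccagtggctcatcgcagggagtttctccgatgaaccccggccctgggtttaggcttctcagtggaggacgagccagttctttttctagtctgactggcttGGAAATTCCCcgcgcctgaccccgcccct
Tnfaip3 (chr10:19015411-19015660, minus strand): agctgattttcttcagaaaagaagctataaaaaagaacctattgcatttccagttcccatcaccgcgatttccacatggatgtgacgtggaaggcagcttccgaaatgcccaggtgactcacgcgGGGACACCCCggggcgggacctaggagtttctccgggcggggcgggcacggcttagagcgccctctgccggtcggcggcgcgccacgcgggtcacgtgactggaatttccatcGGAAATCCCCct
A match is a description of the letters and not a site of binding. Of 27025 RefSeq gene symbols 8.23% held a match in a window of this length, as did 10.2% of the 7180 genes of the present set that could be matched by symbol, and 12 of 19 matched NF-kB factor, feedback and cytokine genes. Genes of the set with and without a match had the same median difference of -0.01.

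Cxcl1, a neutrophil attractant, was at 15.5, 14.0 and 14.5 FPKM without MCC950 and 17.7, 14.3 and 14.4 FPKM with it. Nfkbia, the inhibitor IκBα that NF-kB induces against itself, was at 27.6, 25.7 and 25.9 FPKM without MCC950 and 28.6, 26.4 and 24.9 FPKM with it. Tnfaip3, the feedback enzyme A20, was at 3.04, 3.01 and 2.99 FPKM without MCC950 and 3.23, 3.21 and 2.80 FPKM with it. In these 3 genes the groups overlapped, with differences of 0.07 (95% interval -0.14 to 0.28), 0.01 (95% interval -0.14 to 0.16) and 0.02 (95% interval -0.13 to 0.17). Cxcl2, a second neutrophil attractant, was lower in level and less precise, with a difference of 0.11 (95% interval -0.19 to 0.41). The limma adjusted p of these 4 ran from 0.714 for Cxcl2 to 0.942 for Nfkbia.

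Of 22 NF-kB factors and feedback genes 16 were above 1 FPKM, and 0 were higher and 2 lower without overlap (8.88% and 10.8% of all genes tested), with a median of -0.04 that became 0.03 without the GC trend. Rela, the activating subunit of NF-kB, was at 60.7, 60.2 and 61.0 FPKM without MCC950 and 58.6, 58.0 and 55.4 FPKM with it, a small step down in every MCC950 library that was gone when the GC trend was removed. Sod2, the mitochondrial superoxide dismutase that NF-kB induces, was the other gene that was lower throughout, at -0.08, and stayed separated at -0.16. Without replicate 1 of the libraries given no MCC950, 8 of the 16 were lower without overlap, where 2099 of the 8999 genes were.

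The cytokine genes of the same pathway were mostly silent. Tnf, Il6, Il12b and Csf2 had no read in any library, and 8 of 27 cytokine and chemokine genes were above 1 FPKM. Ccl9, a monocyte attractant, was the most abundant at 32.3, 31.7 and 33.4 FPKM without MCC950 and 36.0, 30.3 and 34.3 FPKM with it, with overlapping groups. Ccl2, the classical monocyte attractant, was at 8.53, 12.4 and 10.7 FPKM without MCC950 and 12.9, 11.5 and 13.8 FPKM with it, and its groups overlapped through the lowest MCC950 library (0.26 (95% interval -0.05 to 0.56)). Cxcl16, a transmembrane chemokine, was at 3.90, 3.91 and 4.29 FPKM without MCC950 and 3.34, 3.01 and 3.66 FPKM with it, below throughout (-0.22 (95% interval -0.39 to -0.04), limma adjusted p = 0.394) and still separated without the GC trend (-0.20).

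The acute phase proteins, the plasma proteins that the liver makes in inflammation, were among the most abundant transcripts, and 1 was higher and 5 lower of 32 (8.88% and 10.8% of all genes tested), with a median of -0.05. Without the GC trend 1 was higher and 2 lower (median -0.04), and with quantile normalization 1 and 2 (median -0.01). Lcn2, an iron-scavenging defence protein, was at 3012, 2062 and 2113 FPKM without MCC950 and 2538, 2286 and 2604 FPKM with it, with overlapping groups. Saa1, a serum amyloid A, was at 285, 486 and 422 FPKM without MCC950 and 236, 384 and 347 FPKM with it, also overlapping. Saa1 and Saa2 are near-identical copies, so their split is uncertain. Hamp, which encodes the iron hormone hepcidin, was at 3598, 2427 and 2719.8 FPKM without MCC950 and 2201, 2403 and 2485 FPKM with it, where 1 library without MCC950 was high and the other 2 lay within or near the MCC950 range.

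Of the separated acute phase genes Saa3, the amyloid A gene of extrahepatic tissues and macrophages, was lower at 18.2, 21.9 and 17.3 FPKM without MCC950 and 11.7, 16.6 and 15.5 FPKM with it (-0.38 (95% interval -0.71 to -0.04), limma adjusted p = 0.402). Orm1, the orosomucoid carrier protein, was higher at 2409, 2363 and 2292 FPKM without MCC950 and 2689, 2450.5 and 2794 FPKM with it (0.17 (95% interval 0.00 to 0.33)). Both stayed separated without the GC trend, at -0.38 and 0.17. Hp (haptoglobin), Hpx (hemopexin), Itih4 and Stat3 were lower by -0.17, -0.07, -0.10 and -0.09, and the groups of these 4 overlapped without the trend. None of 20 interferon-stimulated genes above 1 FPKM was separated in either direction, beside 8.88% higher and 10.8% lower among all genes tested. Their median was -0.07 (-0.03 without the GC trend). The most abundant was Bst2 (tetherin) at 166, 193 and 174 FPKM without MCC950 and 156, 167 and 162 FPKM with it.

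Genes of hepatocyte function were often lower in all 3 MCC950 libraries, by small amounts. Among 21 urea cycle and periportal genes 9 were lower and 1 higher without overlap, with a median of -0.14. Among 31 hepatocyte identity genes 12 were lower and 0 higher (median -0.11), and among 25 genes of glycolysis and gluconeogenesis 10 were lower and 1 higher (median -0.10). These counts stand beside 10.8% lower among all genes tested, and no gene of these lists passed limma's adjusted threshold. Without the GC trend the medians were -0.06, -0.07 and -0.04, with 9, 10 and 7 genes lower, where 605 of all 8999 genes were. With quantile normalization 6, 5 and 5 were lower (medians -0.09, -0.06 and -0.06), where 746 of the 8999 were. In the deposited values the share of the 8999 genes that was lower without overlap rose with level. It was 5.39% at a mean of 1.00 to 2.59 FPKM and 19.5% (351 of 1800 genes) at 23.5 FPKM or more. The share higher was 10.2% and 5.89% at these levels. The median difference at the upper level was -0.05. The shares over all genes tested are not matched to the level of any list, here or below, and a matched share was not tested. For the lists that follow, the shares over all genes tested are the same 8.88% higher and 10.8% lower, and of the 8999 genes 626 were higher and 605 lower without the GC trend, 991 and 746 with quantile normalization, and 1629 and 2099 without replicate 1 of the libraries given no MCC950. In a bulk sample fewer hepatocytes in the mix and less of these RNAs in each cannot be told apart.

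In the urea cycle the difference varied from enzyme to enzyme. Asl, argininosuccinate lyase, was at 61.2, 62.4 and 57.7 FPKM without MCC950 and 48.5, 51.4 and 47.4 FPKM with it, -0.29 (95% interval -0.43 to -0.16) on the log2 scale (limma adjusted p = 0.390). Ass1, the enzyme before it, was at 182, 209.8 and 183 FPKM without MCC950 and 181, 167 and 169 FPKM with it, and Arg1, the arginase after it, at 278, 295 and 279.8 FPKM without MCC950 and 254, 258 and 273 FPKM with it. All 3 enzymes were lower in every MCC950 library, though the intervals of Ass1 (-0.15 (95% interval -0.32 to 0.02)) and Arg1 (-0.12 (95% interval -0.25 to 0.01)) reached 0. Without the GC trend Asl and Arg1 stayed lower without overlap (-0.21 and -0.14) and the groups of Ass1 overlapped (-0.07). Cps1, the entry enzyme, overlapped between the groups at -0.03 (95% interval -0.14 to 0.08), and was lower without overlap when the GC trend was removed (-0.06). Otc, the second mitochondrial step, went the other way at 21.8, 21.2 and 21.3 FPKM without MCC950 and 25.4, 22.8 and 24.3 FPKM with it (0.17 (95% interval 0.04 to 0.29), limma adjusted p = 0.394), and was still higher without overlap when the GC trend was removed (0.08).

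Other periportal and amino acid enzymes were lower too. Fbp1, the fructose bisphosphatase of gluconeogenesis, was at 155, 162 and 158 FPKM without MCC950 and 131, 141 and 134 FPKM with it, a difference of -0.22 (95% interval -0.34 to -0.10). Uroc1 and Hal, both enzymes of histidine breakdown, differed by -0.26 and -0.22, and Agxt, the peroxisomal glyoxylate transaminase, by -0.22. Tat and Hpd, enzymes of tyrosine breakdown, differed by -0.20 and -0.26, and Hpd was at 141, 149.5 and 141 FPKM without MCC950 and 114, 126 and 119 FPKM with it. Fbp1, Uroc1, Hal, Agxt, Tat and Hpd were separated in the deposited values and also without the GC trend, at -0.18, -0.20, -0.22, -0.13, -0.19 and -0.19.

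Among the identity genes Hnf4a, the central regulator of the hepatocyte, was at 106, 115 and 113 FPKM without MCC950 and 103, 108 and 101 FPKM with it with overlapping groups. Apoa1, the main protein of high-density lipoprotein, was at 6794, 8325 and 7479.8 FPKM without MCC950 and 5619, 6734 and 6418 FPKM with it, and Apoc3, an inhibitor of lipoprotein lipase, at 1025, 968 and 880.0 FPKM without MCC950 and 817, 804 and 765 FPKM with it. The apolipoproteins were thus lower in each MCC950 library by -0.27 and -0.26, while Apob overlapped at 0.12. Without the GC trend Apoa1 and Apoc3 were both at -0.17, and the groups of Apoc3 overlapped while those of Apoa1 did not. Alb, the most abundant transcript, overlapped, with 32796, 26207 and 27326 FPKM without MCC950 and 31888, 28381 and 31577 FPKM with it, and so did mt-Co1 and Serpina3k. Hpx was the one of the 5 most abundant genes that was separated.

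In glycolysis Gpi1, the glucose phosphate isomerase, was at 118, 128 and 123 FPKM without MCC950 and 106, 111 and 103 FPKM with it, -0.21 (95% interval -0.34 to -0.07), and Pklr, the liver pyruvate kinase, at 149.8, 164 and 152 FPKM without MCC950 and 145, 144 and 136 FPKM with it. Slc2a2, the glucose transporter GLUT2, was the one gene of the list that was higher without overlap (0.13). Without the GC trend the groups of Slc2a2 (0.05) and Pklr (-0.06) overlapped, and Gpi1 stayed lower without overlap (-0.16). Gapdh, often used as a reference gene, was at 6.77, 8.21 and 10.9 FPKM without MCC950 and 10.1, 17.5 and 20.7 FPKM with it, far below the neighbouring enzymes, and its groups overlapped. It has many near-identical pseudogene copies, so its level is uncertain.

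Complement and coagulation genes, secreted proteins of the hepatocyte, were lower in 12 of 33 cases and higher in 1, beside 10.8% and 8.88% of all genes tested, with a median of -0.03. The list had 9 lower and 1 higher without the GC trend (605 and 626 of the 8999 genes) and 4 lower and 2 higher with quantile normalization (746 and 991). F10, coagulation factor X, was at 109, 109 and 102 FPKM without MCC950 and 88.1, 91.9 and 91.8 FPKM with it, -0.23 (95% interval -0.35 to -0.12) with limma adjusted p = 0.390. C4b, complement C4, was at 212, 205 and 209 FPKM without MCC950 and 181, 193 and 183 FPKM with it, and C3, the most abundant complement gene, at 884, 894 and 894 FPKM without MCC950 and 829.8, 837 and 826 FPKM with it. Every MCC950 library lay below the others in these 3 genes.

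Genes of bile acid synthesis and transport were lower in 7 of 19 cases and higher in 0, beside 10.8% and 8.88% of all genes tested, with a median of -0.03. There were 5 lower and 0 higher without the GC trend and 3 lower and 1 higher with quantile normalization. Akr1d1, a reductase of bile acid synthesis, was at 1.35, 1.31 and 1.53 FPKM without MCC950 and 0.968, 1.09 and 1.15 FPKM with it, with a difference of -0.21 (95% interval -0.40 to -0.03). Slc27a5, which loads bile acids onto coenzyme A, was at 224, 209.5 and 199 FPKM without MCC950 and 188, 191 and 188 FPKM with it. Drug metabolism enzymes were lower in 8 of 40 cases and higher in 0, again beside 10.8% and 8.88%. There were 7 lower and 0 higher without the GC trend, 4 and 0 with quantile normalization, and 9 lower and 5 higher without replicate 1 of the libraries given no MCC950. Adh1, an alcohol dehydrogenase, was at 102, 96.2 and 96.1 FPKM without MCC950 and 84.8, 84.5 and 89.1 FPKM with it. Cyp2d26, a cytochrome P450, was at 157, 150.0 and 153 FPKM without MCC950 and 139, 137 and 125 FPKM with it, and its groups overlapped without the GC trend (-0.13). The median of the drug metabolism list was -0.04 and became 0.00 with quantile normalization and 0.01 without replicate 1 of the libraries given no MCC950. Pericentral genes, from the other end of the liver lobule, were lower in 4 of 19 cases and higher in 0 (2 and 0 without the GC trend, 3 and 0 with quantile normalization), and their median of -0.07 became 0.01 with quantile normalization.

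**Figure D3:**
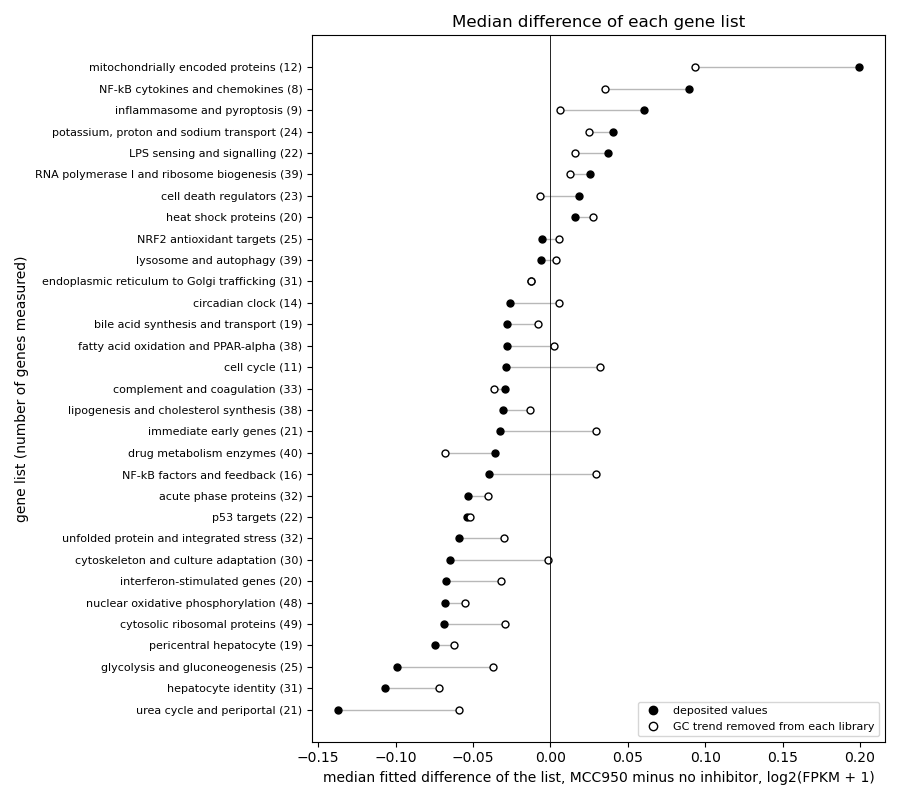
Median fitted difference of each gene list with 8 or more genes above 1 FPKM (number in brackets), as deposited (filled) and with the GC trend removed from each library (open), in log2(FPKM + 1). The urea cycle, hepatocyte identity and glycolysis lists lie lowest at -0.14, -0.11 and -0.10, and the mitochondrially encoded genes highest at 0.20.

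Lipid genes were divided. In the list of fatty acid oxidation and PPARα targets 6 of 38 were higher and 5 lower, beside 8.88% and 10.8% of all genes tested (3 and 3 without the GC trend, 6 and 2 with quantile normalization). Acot2, a mitochondrial acyl-CoA thioesterase, was at 3.84, 4.10 and 3.65 FPKM without MCC950 and 5.23, 5.38 and 4.80 FPKM with it, 0.34 (95% interval 0.18 to 0.49), and it has close copies in the same family, so its reads may be shared. Plin2, the coat protein of lipid droplets, was at 203, 175 and 175 FPKM without MCC950 and 227, 209.6 and 223 FPKM with it, 0.26 (95% interval 0.08 to 0.43), with limma adjusted p = 0.390. Both stayed higher without overlap when the GC trend was removed (0.40 and 0.30). Of 38 lipogenesis and cholesterol genes 9 were lower and 1 higher, but 1 lower and 2 higher without the trend and 3 lower and 5 higher with quantile normalization. Fasn, the fatty acid synthase, was at 111, 114 and 114 FPKM without MCC950 and 102, 99.9 and 96.4 FPKM with it, and its groups overlapped without the trend (-0.07).

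Genes of the unfolded protein response were lower in 8 of 32 cases and higher in 1, beside 10.8% and 8.88% of all genes tested. They were lower in 2 and higher in 1 without the GC trend, and lower in 4 and higher in 4 with quantile normalization. Atf6b, a membrane-bound transcription factor of the endoplasmic reticulum, was at 10.6, 10.2 and 10.1 FPKM without MCC950 and 7.91, 8.01 and 8.16 FPKM with it. It had the smallest unadjusted p of any protein-coding gene, with a difference of -0.33 (95% interval -0.44 to -0.22) and a limma adjusted p of 0.390. Manf, a secreted protein of endoplasmic reticulum stress, was at 53.3, 57.9 and 49.8 FPKM without MCC950 and 41.1, 49.2 and 43.0 FPKM with it, and its groups overlapped without the GC trend (-0.24). Hspa5, the chaperone BiP and the most abundant of the list, overlapped at 664, 657 and 616 FPKM without MCC950 and 645, 620.5 and 638 FPKM with it.

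Genes of RNA polymerase I and ribosome biogenesis were mostly on the higher side among those separated, 8 of 39 higher and 3 lower beside 8.88% and 10.8% of all genes tested, and 6 and 0 without the GC trend (9 and 1 with quantile normalization). Twistnb, a subunit of RNA polymerase I, was at 4.09, 4.08 and 4.10 FPKM without MCC950 and 5.15, 5.14 and 5.20 FPKM with it and nearly equal within each group. Taf1a, of the factor that places the polymerase on ribosomal DNA, was at 2.55, 2.80 and 2.88 FPKM without MCC950 and 3.30, 3.34 and 3.35 FPKM with it, and Npm1, the abundant nucleolar protein nucleophosmin, at 149, 155 and 152 FPKM without MCC950 and 165, 165 and 178 FPKM with it. The differences were 0.28 (95% interval 0.16 to 0.39), 0.21 (95% interval 0.07 to 0.35) and 0.15 (95% interval 0.03 to 0.28), with limma adjusted p of 0.390, 0.390 and 0.396, and Npm1 overlapped without the GC trend. Polr1a, the largest subunit of the polymerase, overlapped at 0.06. Of the cytosolic ribosomal proteins 1 of 49 was higher and 8 were lower (median -0.07), beside the same shares, and 0 and 5 without the GC trend. With quantile normalization 3 were higher and 4 lower (median -0.01), and without replicate 1 of the libraries given no MCC950 8 were higher and 23 lower.

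Of the mitochondrially encoded protein genes 12 of 13 were above 1 FPKM, with the highest median of any list shown in the list plot (0.20) and 0 separated genes. The libraries of a group differed among themselves. mt-Co1, a subunit of cytochrome oxidase, was at 14657, 10539 and 11794 FPKM without MCC950 and 14556, 12080.3 and 13564 FPKM with it. mt-Nd4, a subunit of complex I, was at 1999, 1389.7 and 1649 FPKM without MCC950 and 2182, 1844 and 2019 FPKM with it. Replicate 1 of each group was high and replicate 2 without MCC950 was low in both genes. Without replicate 1 of the libraries given no MCC950 the median was 0.36, and 9 of the 12 were higher without overlap. These transcripts have a median GC share of 37.4%, and with the GC trend removed the median was 0.09. Nuclear genes of oxidative phosphorylation were higher in 3 and lower in 9 of 48 cases (median -0.07), beside 8.88% and 10.8% of all genes tested. They were higher in 1 and lower in 5 without the trend, in 4 and 4 with quantile normalization, and in 3 and 23 without replicate 1 of the libraries given no MCC950.

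The genes with the smallest limma p among those whose groups did not overlap belonged to no single list. On the higher side, besides Twistnb and Acot2, were Xkr9, an Xk-family membrane protein, at 5.98, 6.17 and 5.90 FPKM without MCC950 and 7.65, 7.24 and 8.17 FPKM with it, and Trp53inp1, a p53-induced regulator of autophagy and cell death, at 13.6, 12.99 and 14.0 FPKM without MCC950 and 16.3, 16.3 and 17.3 FPKM with it. Tfrc, the transferrin receptor that brings in iron, was at 15.0, 15.2 and 15.6 FPKM without MCC950 and 19.8, 17.7 and 18.6 FPKM with it. Eid1, an inhibitor of the p300 acetyltransferase, was at 4.58, 4.64 and 4.35 FPKM without MCC950 and 5.70, 5.59 and 5.54 FPKM with it. These 4 differed by 0.31 (95% interval 0.17 to 0.44), 0.28 (95% interval 0.15 to 0.40), 0.28 (95% interval 0.15 to 0.40) and 0.26 (95% interval 0.14 to 0.38). Plscr2, a phospholipid scramblase, and Odf3b complete the 8 genes with the smallest p that were higher, at 0.32 and 0.36.

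On the lower side, besides Atf6b and Asl, were Tmem203, a small membrane protein of the endoplasmic reticulum, at 6.94, 6.39 and 5.48 FPKM without MCC950 and 3.74, 4.21 and 3.50 FPKM with it, and Ddt, D-dopachrome tautomerase, a cytokine-like relative of MIF, at 16.8, 19.3 and 17.5 FPKM without MCC950 and 13.2, 13.7 and 12.3 FPKM with it. Ubac2, a membrane protein of endoplasmic reticulum quality control, was at 12.4, 12.002 and 12.7 FPKM without MCC950 and 9.93, 9.76 and 9.98 FPKM with it. Mvb12a, a subunit of the ESCRT-I sorting complex, was at 19.1, 18.5 and 17.1 FPKM without MCC950 and 13.8, 14.2 and 14.3 FPKM with it. The 4 differed by -0.59 (95% interval -0.81 to -0.37), -0.42 (95% interval -0.58 to -0.26), -0.30 (95% interval -0.41 to -0.19) and -0.35 (95% interval -0.48 to -0.22). Snapc2, a subunit of a complex needed for the transcription of small nuclear RNAs, and Cuedc2, a ubiquitin-binding protein, were lower by -0.35 and -0.46. All 16 of these genes had the same limma adjusted p of 0.390, and all 16 stayed without overlap when the GC trend was removed. Over all protein-coding genes measured, the share without overlap went from 20.4% to 13.7% with that removal. The 16 were picked from these same values, so their intervals and their staying separated are a description and not a test.

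**Figure D4:**
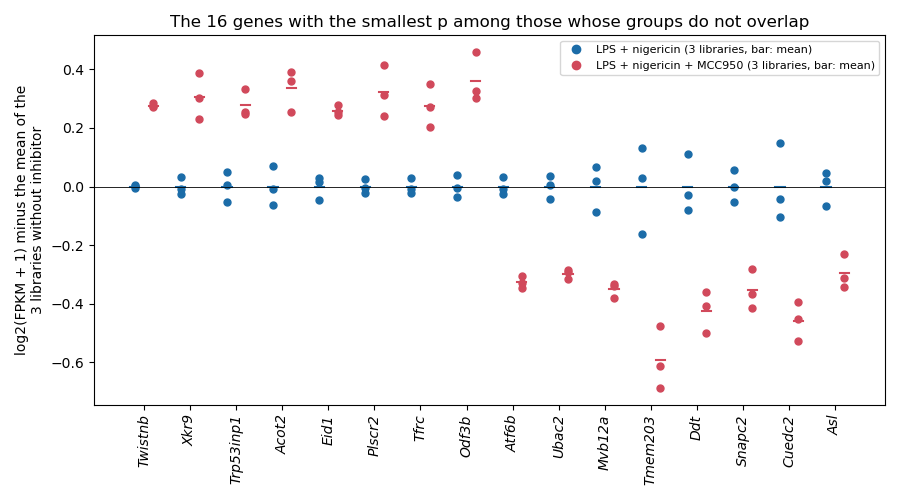
log2(FPKM + 1) of each library minus the mean of the 3 libraries without MCC950, for the 8 higher and the 8 lower genes with the smallest p among those whose groups do not overlap; bars are group means. Tmem203 has the largest mean difference at -0.59, and Twistnb the tightest points in both groups among these 16 genes.

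Among genes with a mean of 10 FPKM or more and no overlap, the 5 largest differences each way included 4 genes with close copies. Lowest was Ftl1-ps1, a copy of the ferritin light chain gene, at 26.0, 30.0 and 23.5 FPKM without MCC950 and 13.4, 21.4 and 15.2 FPKM with it (-0.66 (95% interval -1.06 to -0.25)), while Ftl1 itself differed by -0.20. Rpl35a, a ribosomal protein with many processed copies, differed by -0.52, and Eno1b, a copy of the enolase gene Eno1, by 0.56. Mup7, a major urinary protein, differed by 0.37. The counts of these genes may hold reads of their relatives and are uncertain. The others were Tmem256 at -0.54, Apoc1, an apolipoprotein, at -0.45, Uqcc2, an assembly factor of complex III, at -0.45, Hacd1, an enzyme of fatty acid elongation, at 0.44 and Atg12, of the autophagy conjugation system, at 0.29. Tmsb4x, the actin-binding thymosin β4, was higher at 12.2, 11.9 and 11.7 FPKM without MCC950 and 16.8, 14.0 and 14.2 FPKM with it (0.30 (95% interval 0.12 to 0.48), limma adjusted p = 0.390).

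Only 3 of the 8999 genes differed by more than 2-fold in FPKM + 1, a scale that shrinks the fold of low genes. All 3 are major urinary protein cluster genes on chromosome 4, looked up after their values were seen. Mup15 was at 3.28, 5.63 and 3.02 FPKM without MCC950 and 3.94, 5.65 and 392 FPKM with it, so 1 MCC950 library carried the whole difference. Mup13 was at 141, 2.86 and 2.84 FPKM without MCC950 and 2.90, 3.37 and 2.47 FPKM with it, where 1 library without MCC950 did. Gm21320 was at 536, 222 and 0.847 FPKM without MCC950 and 0.260, 112 and 0.328 FPKM with it, high in 3 libraries of both groups. The genes of this cluster are near-identical copies, and the way reads were shared between them is uncertain.

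The relation with base composition differed between libraries of the same group. The deviation of a library from the mean of the 6 had a Spearman correlation with GC share, across genes, of 0.04, 0.55 and 0.36 in replicates 1, 2 and 3 without MCC950 and of -0.51, -0.01 and -0.49 in those with it. Replicate 1 without and replicate 2 with MCC950 were thus flat, and the slope rested on the other 4. Leaving out any 1 library left the correlation of the group difference with GC between -0.49 and -0.64. Genes lower without overlap had a median GC share of 54.7% and a median level of 13.5 FPKM, and genes higher without overlap had 43.8% and 5.60 FPKM. The difference had a correlation of 0.28 with gene length, opposite in sign to that with GC share, and of -0.19 with mean level. The MCC950 libraries were also the deeper ones, and depth and group cannot be told apart.

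**Figure D5:**
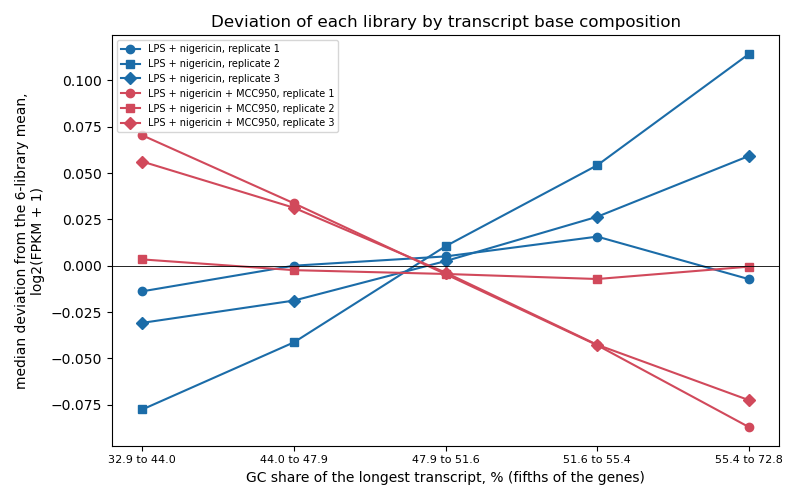
Median deviation of each library from the 6-library mean, in log2(FPKM + 1), for 5 equal groups of genes ordered by the GC share of their longest transcript. Replicates 1 and 3 with MCC950 slope down and replicates 2 and 3 without it slope up, while the other 2 libraries stay near 0.

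Markers of other liver cell types were summed in each library. The summed level of the 20 Kupffer cell and macrophage markers was 29.1 to 36.2 FPKM without and 29.1 to 36.2 FPKM with MCC950, nearly all of it Cd68. Marco, a scavenger receptor of Kupffer cells, had 1, 1 and 2 reads without MCC950 and 5, 7 and 9 with it, Clec4f had 0, 1 and 0 reads without MCC950 and 7, 3 and 3 with it, and Csf1r had 4, 3 and 6 reads without MCC950 and 10, 10 and 8 with it. These 3 were the markers of the 20 that were higher in all MCC950 libraries, at a few reads each, and 0 were lower. The groups of 15 others, Cd68, Adgre1, C1qa, C1qb and C1qc among them, overlapped, and Vsig4 and Aif1 were at 0 in every library. Cholangiocyte markers had the largest sum, 134 to 147 FPKM without and 134 to 148 FPKM with MCC950, nearly all of it Cdh1, an adhesion protein that hepatocytes also make, and Spp1. Neutrophil markers summed to 0.458 to 0.598 and 0.575 to 1.36 FPKM, lymphocyte markers to 0.177 to 0.291 and 0.110 to 0.276, and endothelial markers to 7.14 to 8.00 and 7.44 to 8.80. Stellate cell and fibroblast markers summed to 1.534 to 1.590 and 1.502 to 1.749 FPKM. In these lists 3 of 16 endothelial, 1 of 13 cholangiocyte and 1 of 13 neutrophil genes were lower in all 3 MCC950 libraries and 0 were higher. All the separated markers, those of Kupffer cells included, lay below 1 FPKM. The shares of 8.88% higher and 10.8% lower cover only genes above that level, so these counts have no like share beside them. Whether the markers changed cannot be read from them. The part of other cell types in the differences of Tlr4 and the other low immune genes was not tested.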

How the data were processed

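RNA from primary mouse hepatocytes was sequenced in 6 libraries, 3 a group. Per the submitters' processing notes, HISAT2 2.2.1 and featureCounts 1.5.0-p3 with the genome mm10 were used. The sources used here do not give how strand and reads with several matches were handled. The authors deposited FPKM values per gene, with gene length and type in the same table. FPKM times gene length gave whole multiples of 1 step in every library (within 0.05 of a read for 100% of values under 10000 reads), so reads per gene could be recovered. Genes that averaged 1 FPKM or more were tested with limma 3.58.1 in R 4.3.3 on log2(FPKM + 1) with an intensity trend, two-sided and without a block, adjusted by Benjamini-Hochberg over all 9835 genes. Pathway genes under that level with at least 10 reads were tested by exact permutation. The test was tried on simulated data first. GC shares are those of the longest GENCODE transcript, known for 8992 of the 8999 genes.

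The genes and lists were chosen with earlier results of these data known. Of 1038 genes in the lists 1034 matched the table by symbol. Genes were named by a rule: all pathway genes with a read, the 8 higher and 8 lower genes with the smallest p and no overlap, the 5 largest differences each way at a mean of 10 FPKM or more, the most abundant and the 2 genes of smallest p in each list, and the 5 most abundant genes. Other genes in the text (such as Otc, Ass1, Arg1, Apoa1, Cxcl1, Nfkbia, Lcn2, Hamp, Slc2a2, Gapdh and Mup15) were added after their values were seen. A few genes that the rule names are not reported here. Alternatives were another pseudocount, filter, scaling, moderation, weights, a replicate block, a gene length trend, reads in place of FPKM and each library left out; removal of the GC trend was added after seeing the data. The other libraries of the series were not used here.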

Additional observations from a re-analysis of the deposited data

How the results depend on the processing

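limma called 0 genes at an adjusted p of 0.05 under 19 of the other 21 settings. With no filter on low values it called 2, Mir1964 (higher) and Gm26268 (lower), each a microRNA gene with 3 reads in all. The count ran from 0 to 1 when each library was left out in turn, the 1 being Snord58b, a small nucleolar RNA gene with 8 reads, without MCC950 replicate 1. Neither kind is protein-coding. At an unadjusted p under 0.05, 421 protein-coding genes were higher and 647 lower, and leaving out each library in turn gave 198 to 566 higher and 341 to 1064 lower. Higher genes numbered 243 at a mean of at least 5 FPKM (fewer genes tested), 660 with array weights, 717 with voom on recovered reads, 249 with the GC trend removed and 268 with the GC trend removed and a replicate block. Lower genes numbered 1065 with array weights, 1016 with a replicate block and 293 with the GC trend removed. Beyond these the cause was not tested. The replicate block gave 537 higher and called 0. Equal replicate numbers correlated at 0.179, 0.218 and 0.0850 across the groups. Among the MCC950 libraries, each library without MCC950 correlated best with the one of its own number, which is a hint from the data and not the design. Of the lower share of these genes, 60.6% with deposited values, other settings gave 53.1% with median-of-ratios scaling, 44.2% with quantile normalization, 38.2% with voom and 49.8% with the gene length trend removed. Krt8 changed sign with quantile normalization (0.024), and Per1 with the GC trend removed and without replicate 1 of the group given no MCC950 (0.038). For named genes 3315 of 3396 alternative values moved by less than the spread between replicates or kept their side, and for lists 659 of 775. A named gene with an unadjusted limma p under 0.05 only had to keep its sign. Other moderation, a replicate block, no filter on low values and protein-coding genes alone cannot change a difference. Part of both counts was thus fixed in advance. The medians of 10 of 37 lists changed sign with quantile normalization. A difference in a gene of a few reads, such as Nlrp3 or Casp1, was not detectable at this depth.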
